A study of Oryza sativa with 4 samples.

Results

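Late embryogenesis abundant (LEA) proteins other than dehydrins were followed in the leaves of rice as the soil dried. The members were found by words in the annotation column of the deposited gene table. A sequence was taken when its annotation held "late embryogenesis", "LEA protein" or "Harpin-induced" and neither "dehydrin" nor "RAB". This gave 81 transcripts of 71 loci. The transcript with the most reads stood for its locus, and 62 of the 71 loci had at least 10 reads over the 4 libraries, of 32572 such loci in the whole table.

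The plants were wild type Oryza sativa of the ecotype labelled Illmi, 5 weeks old and grown in a greenhouse, and all groups shared this background. The 3 drought groups were leaves taken 1, 2 and 3 d after water was withheld (1 d, 2 d and 3 d), set against a well-watered control (C) taken before. Each library came from the pooled leaves of several plants, with 1 library per condition, so no difference below has a replicate check and no test across plants was possible. Drought and day of sampling cannot be told apart.

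LEA proteins are named for their build-up in seeds late in development, when the embryo loses water. They are mostly very hydrophilic and largely unfolded in solution, and they are thought to keep proteins and membranes from damage as cells dry. Many LEA genes are silent or weak in watered leaves and respond to abscisic acid (ABA), the hormone of water deficit. The Harpin-induced genes are a different kind of member. They are named for the tobacco gene HIN1, which responds to a bacterial harpin protein, and their family in Arabidopsis includes NDR1, a membrane protein of disease resistance. Their proteins carry a folded domain related to that of the LEA-14 proteins, which are less hydrophilic than other LEA proteins.

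The members were sorted by their annotation words into 5 classes, group 1 LEA (4 of 4 matched loci had at least 10 reads), group 3 and repeat LEA (7 of 7), LEA-14 domain (5 of 7), Harpin-induced (39 of 45) and other LEA (7 of 8). Group numbers differ between naming schemes of LEA proteins, and those of the annotation are used here. Of the 9 loci below 10 reads, 3 had no read in any library. The highest of the 9 was the Harpin-induced Os06t0710500-01, whose 8 reads were all in C. Among the 62 loci, 2 reached 10 reads only through their highest library and 14 had fewer than 10 reads in C.

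Reads mapped to genes numbered 56727328 in C and 52626188, 60322263 and 56909968 at 1, 2 and 3 d. Levels are given as CPM, the reads of a transcript per 1000000 of these mapped reads. A change is the log2 ratio of the CPM of a drought library to that of C, and a transcript was called up- or down-regulated where this ratio reached 1 or −1, which is 2-fold. Brackets give the exact (Clopper-Pearson) 95% interval of the ratio, which, like the limits for counts of 0, holds the error of counting and no other. The limit for a count of 0 is 3 reads, or 0.0497 to 0.0570 CPM. The median log2 ratio of all loci was 0.03 at 1 d, −0.41 at 2 d and −0.86 at 3 d. Other scalings moved that median by up to 0.86, so medians of classes are also given relative to it. Leaf markers by annotation words (chlorophyll a/b, photosystem and Rubisco small subunit, 49 loci) summed to 25404, 25419, 5679 and 2210 CPM in C and at 1, 2 and 3 d, so the leaf transcripts that marked the tissue in C took a smaller share of the reads at 2 d and 3 d. In bulk leaves, fewer cells of a type and less RNA per cell cannot be told apart.

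Taken over the 62 loci, up-regulation was seen from 1 d on and was joined by down-regulation of a smaller number. At 1 d, 14 of the 60 loci with reads in both libraries were up-regulated (5.71% of all loci) and 9 were down-regulated (4.57% of all loci). With no scaling for depth these counts were 12 and 12. At 2 d, 32 of 61 were up-regulated (19.9% of all loci) and 15 were down-regulated (34.9% of all loci). At 3 d, 33 of 61 were up-regulated (20.8% of all loci) and 16 were down-regulated (47.4% of all loci). Scaled to mapped reads, all loci thus had more down- than up-regulation on the last 2 days, and the LEA and Harpin-induced loci the reverse. For all loci this split depends on the scaling. With edgeR TMM 24.9% of all loci were up- and 27.7% down-regulated at 2 d, and 30.5% and 34.8% at 3 d. With DESeq2 factors the shares were 25.6% up and 27.0% down at 2 d, and 32.7% up and 32.6% down at 3 d. Among the members, up- and down-regulated loci at 3 d then numbered 38 and 14 with edgeR TMM, and 38 and 12 with DESeq2 factors. The median log2 ratio of the members lay 0.20, 1.64 and 2.03 above that of all loci at 1, 2 and 3 d.

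The summed level of the 62 loci was 432 CPM in C, 386 CPM at 1 d, 3357 CPM at 2 d and 4986 CPM at 3 d. The sum thus changed little at 1 d and was 7.77-fold and 11.5-fold that of C at 2 d and 3 d. Between successive days, 31 of 60 loci were up-regulated and 15 down-regulated at 2 d against 1 d (20.3% and 35.9% of all loci). At 3 d against 2 d, 14 of 61 were up- and 14 down-regulated (11.2% and 30.9% of all loci), so more of the calls fell in the step between 1 d and 2 d. The CPM was highest at 3 d for 31 of the 62 loci (21.6% of all loci), at 2 d for 10, at 1 d for 11 and in C for 10.

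Early calls of up-regulation lasted. All 14 loci up-regulated at 1 d were also up-regulated at 2 d and 3 d, against 49.5% of the 1567 loci of the whole table that were up-regulated at 1 d and had reads in every library. Of the 14 calls at 1 d, 11 had an interval clear of 0, and 12 remained with no scaling. The interval at 1 d included no change for Os07t0524200-01, Os08t0558300-00 and Os12t0626500-00, which had few reads. Of the 9 members down-regulated at 1 d, 2 were down-regulated at 2 d and 3 d as well (25.6% of all loci down-regulated at 1 d). These ratios share the C library, so a low or high value in C moves them together.

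**Figure D1:**
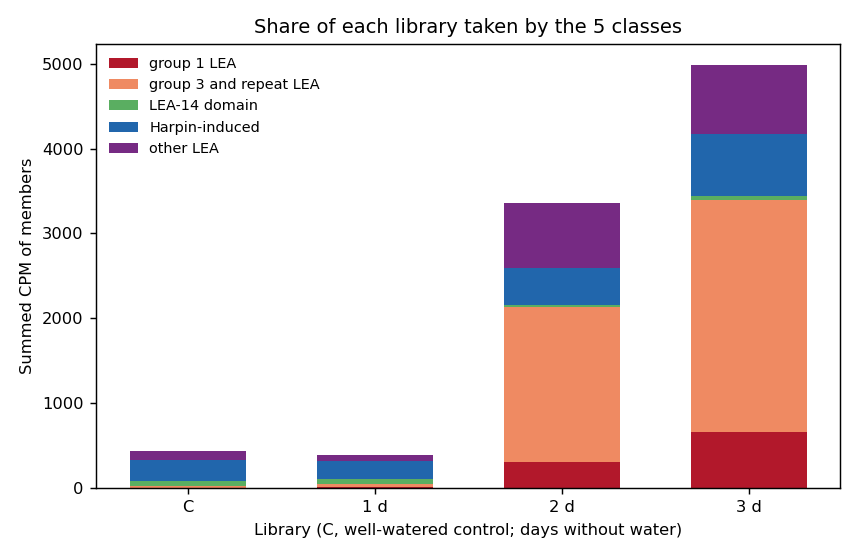
Summed CPM of the 62 loci (vertical axis) in C and at 1, 2 and 3 d (horizontal axis), 1 library each, stacked by class. Group 3 and repeat LEA transcripts took 1830 CPM at 2 d and 2737 CPM at 3 d, the largest part of the bar on both days, whereas Harpin-induced transcripts took the largest part in C with 255 CPM.

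The group 1 LEA class moved in a single direction. Its 4 loci summed to 2.13 CPM in C, 5.32 CPM at 1 d, 302 CPM at 2 d and 663 CPM at 3 d, a 311-fold difference at 3 d (log2 ratio 8.28, 8.02 to 8.55). All 4 were up-regulated on each of the 3 days (2.56% of all loci with reads in every library), and all 4 had their highest level at 3 d. Their median log2 ratio was 1.71, 7.62 and 8.53 at 1, 2 and 3 d, or 1.68, 8.02 and 9.38 above that of all loci. The call of Os08t0327700-01 at 1 d was lost with no scaling (0.91), which left 3 of 4.

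Os04t0589800-01 on chromosome 4 was the most abundant, with 1.71, 4.09, 221 and 531 CPM in C and at 1, 2 and 3 d. It made up 80.2% of the class at 3 d. Os06t0324400-01, one of the LEA genes the study names, had 0.0353, 0.190, 12.5 and 28.9 CPM. Its C value rests on 2 reads, so its log2 ratio of 9.68 at 3 d has the wide interval of 7.82 to 12.72, and it ranked 10th of all loci by this ratio.

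Os06t0110200-01, also named by the study, had 0.106, 0.475, 31.1 and 46.2 CPM, and its log2 ratio at 3 d was 8.77 (7.65 to 10.22). Os08t0327700-01 had 0.282, 0.570, 37.0 and 56.0 CPM, with a log2 ratio of 7.63 (6.93 to 8.44). In each of the 4 the level at 2 d lay far above that at 1 d, with log2 ratios of 5.76 to 6.04 between these days, and that at 3 d above that at 2 d by 0.57 to 1.27. Of the 62 loci, 9 carried a biological process term of the Gene Ontology, and these 4 were the ones with the term embryo development.

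Proteins of the group 3 and repeat LEA class are built from a short repeated motif that can form a helix as water is lost. The 7 loci summed to 17.9, 38.3, 1830 and 2737 CPM in C and at 1, 2 and 3 d, 153-fold higher at 3 d than in C (log2 ratio 7.25, 7.16 to 7.34). Up-regulated loci numbered 4 at 1 d, 6 at 2 d and 6 at 3 d (5.71%, 19.9% and 20.8% of all loci). None was down-regulated on any day (4.57%, 34.9% and 47.4% of all loci). The median log2 ratio was 1.29, 6.97 and 7.61, which lay 1.26, 7.37 and 8.47 above that of all loci.

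Os05t0542500-01 was the most abundant member of all, with 5.83, 18.9, 1005 and 1559 CPM. At 3 d it held 31.3% of the summed CPM of the 62 loci and ranked 9th of all loci per length (RPKM, here CPM per kilobase of a sequence that includes introns, 1222). Its log2 ratio was 1.70 (1.52 to 1.88) at 1 d, 7.43 (7.27 to 7.59) at 2 d and 8.06 (7.91 to 8.22) at 3 d. A second transcript of the locus, annotated only as LEA-like and so not matched, had nearly the same reads (389, 966, 59785 and 88211, against 331, 995, 60633 and 88725), and how reads were divided between them is not given in the sources used here.

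Os01t0705200-01 had 1.96, 5.66, 423 and 543 CPM, a log2 ratio of 8.12 (7.85 to 8.40) at 3 d. Os03t0168100-01 had 0.970, 2.38, 121 and 504 CPM, and its log2 ratio of 9.02 (8.64 to 9.43) at 3 d ranked 22nd of all loci. Os01t0705200-01 was close to its highest level by 2 d, whereas Os03t0168100-01 was higher at 3 d than at 2 d by a log2 ratio of 2.06 (2.02 to 2.09). Os03t0322900-00, a repeat protein that the study names, had 0.546, 2.55, 259 and 107 CPM. It had the highest log2 ratio of any member at 2 d, 8.89 (8.38 to 9.45), and then lay lower at 3 d than at 2 d by a log2 ratio of −1.28 (−1.32 to −1.24).

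Fewer reads were counted for Os01t0276300-01, with 0.141, 0.171, 12.8 and 19.1 CPM, and for Os02t0250600-01, with 0.0705, 0.0380, 1.76 and 0.738 CPM. Neither was called at 1 d, although Os02t0250600-01 just reached the threshold for down-regulation with no scaling. Os02t0250600-01 had 4, 2, 106 and 42 reads, so its log2 ratios of 4.64 (3.24 to 6.54) at 2 d and 3.39 (1.93 to 5.33) at 3 d are loosely bounded. The study pairs it with a noncoding transcript beside it on the opposite strand, Os02t0250700-01, which had 72.0, 90.8, 29.4 and 3.85 CPM. That transcript was down-regulated at 2 d (log2 ratio −1.29, −1.37 to −1.21) and at 3 d (−4.23, −4.43 to −4.03), while the LEA transcript was up-regulated on both days. The libraries kept strand, but whether strand was used in the counting is not given in the sources used here.

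The exception in the class was Os01t0109000-01, annotated as similar to a group 3 LEA protein, with 8.43, 8.65, 6.996 and 4.67 CPM. Per length it was the highest of the 7 in C (RPKM 5.46) and was not called on any day. Its log2 ratio of −0.85 (−1.07 to −0.63) at 3 d was close to that of all loci (−0.86), and its sign depends on the scaling (−0.13 with edgeR TMM, 0.01 with DESeq2 factors). The other 10 of the 11 loci in the group 1 and the group 3 and repeat LEA classes were up-regulated at both 2 d and 3 d (15.3% of all loci with reads in every library).

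**Figure D2:**
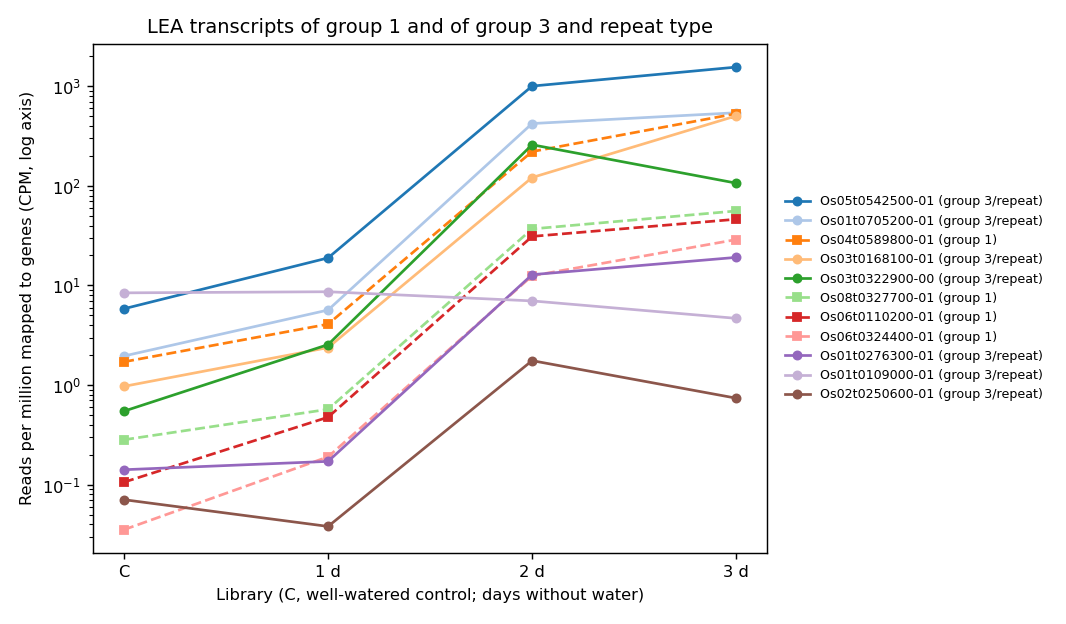
CPM on a log axis (vertical) of the 4 group 1 LEA transcripts (squares, dashed lines) and the 7 group 3 and repeat LEA transcripts (circles, solid lines) in C and at 1, 2 and 3 d (horizontal axis), 1 library each. Of the 11 lines 10 climb between 1 d and 2 d, Os03t0322900-00 and Os02t0250600-01 turn down at 3 d, and Os01t0109000-01 stays between 4.67 and 8.65 CPM.

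The other LEA class held 7 loci of the remaining annotations, which summed to 103, 65.2, 766 and 812 CPM in C and at 1, 2 and 3 d. Of the 6 with reads in both libraries, 1 was up- and 2 were down-regulated at 1 d (5.71% and 4.57% of all loci). At 2 d and at 3 d 5 were up-regulated (19.9% and 20.8% of all loci) and none down-regulated (34.9% and 47.4% of all loci). Their median log2 ratio was −0.77, 2.02 and 1.87 (−0.80, 2.42 and 2.73 relative to all loci). The sum at 1 d was below that of C, at 0.634-fold.

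Os01t0314800-01, a LEA protein 3 family member, had 45.8, 20.01, 529 and 561 CPM. Of the 62 loci it was the highest per kilobase in C and the second at 3 d, when it ranked 30th of all loci (RPKM 768). It was down-regulated at 1 d, with a log2 ratio of −1.20 (−1.30 to −1.09), and up-regulated at 2 d (3.53, 3.47 to 3.59) and at 3 d (3.61, 3.56 to 3.67). Os03t0843300-01, a LEA protein 2 family member, had 34.9, 34.2, 173 and 188 CPM, and its log2 ratio of 2.43 (2.36 to 2.50) at 3 d followed one of −0.03 at 1 d.

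Os12t0626500-00, similar to the cotton seed protein D-34, had 0.0705, 0.171, 1.28 and 20.1 CPM. It was the member with the largest step between 2 d and 3 d, a log2 ratio of 3.98 (3.64 to 4.33), and stood at 8.16 (6.79 to 10.03) at 3 d on 4 reads in C. It was also called at 1 d, on 9 reads there and with an interval that includes no change (1.28, −0.56 to 3.43). The LEA-5 domain protein Os05t0362600-00, of the type of the wheat seed protein Em, had 0, 0, 0 and 14 reads. It passed the minimum of 10 reads through the 3 d library alone, so that its highest level there was fixed by the filter. With its 0 in C set at 3 reads it was 4.65-fold higher at 3 d. That value leaves out the counting error of the 14 reads and is not a lower bound.

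The pair of LEA-18 domain proteins on chromosome 9 moved together. Os09t0482300-01 had 8.39, 4.37, 27.8 and 20.9 CPM and Os09t0482550-01 had 9.43, 3.69, 30.6 and 19.1 CPM. Both were highest at 2 d, and their log2 ratios at 3 d were 1.31 (1.16 to 1.47) and 1.02 (0.87 to 1.17). Their sequences have the same length of 2168 bases and neighbouring identifiers, so they may share reads and may not be independent. How any shared reads were divided between them is not given in the sources used here. Os05t0182000-01 had 4.23, 2.81, 5.12 and 2.90 CPM and was not called on any day.

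The LEA-14 domain class had calls in both directions. Its 5 loci summed to 54.2, 61.4, 27.8 and 40.6 CPM in C and at 1, 2 and 3 d, 0.748-fold at 3 d as a share of the mapped reads. The class words also included LEA_2, but Os03t0843300-01, annotated as LEA protein 2 family, did not match that spelling. It was left in the other LEA class, with 34.9 CPM in C and 188 CPM at 3 d. The lower sum at 3 d thus depends on this sorting by words, and to which class the locus belongs was not tested. The lower sum also depends on the scaling. Its log2 ratio at 3 d was −0.42, and edgeR TMM factors raise every ratio at 3 d by 0.72. At 3 d 1 of 5 loci was up- and 2 of 5 were down-regulated, shares near the 20.8% and 47.4% of all loci. At 2 d 1 was up- and 1 down-regulated (19.9% and 34.9% of all loci). The median log2 ratio was −0.02, −0.47 and −0.31, which is −0.05, −0.06 and 0.55 relative to all loci, and the sign at 3 d turns with the scaling (0.41 with edgeR TMM). With a minimum of 100 reads, the median at 3 d was −1.47.

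Os05t0584200-02, similar to the cotton protein Lea14-A, held most of the reads, with 46.1, 53.6, 24.0 and 37.2 CPM. It stayed within 2-fold of C on every day, its lowest log2 ratio being −0.94 (−1.03 to −0.85) at 2 d. Os06t0119900-01 had 6.24, 6.16, 1.59 and 0.422 CPM, down-regulated at 3 d by a log2 ratio of −3.89 (−4.55 to −3.29). Its neighbour by identifier, Os06t0119200-00, had 0.758, 0.589, 0.547 and 0.123 CPM and was also down-regulated at 3 d (−2.62, −4.02 to −1.46).

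The up-regulated locus was Os08t0163600-00, with 3, 16, 40 and 36 reads, or 0.0529, 0.304, 0.663 and 0.633 CPM. Its log2 ratio was 2.52 (0.72 to 4.94) at 1 d and 3.58 (1.92 to 5.92) at 3 d, from a level that remained under 1 CPM. Os02t0507900-00 had 1.13, 0.684, 0.912 and 2.23 CPM. At 3 d it lay just inside the threshold with 0.98 (0.54 to 1.44), and it passed it with edgeR TMM (1.70) and DESeq2 factors (1.85).

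**Figure D3:**
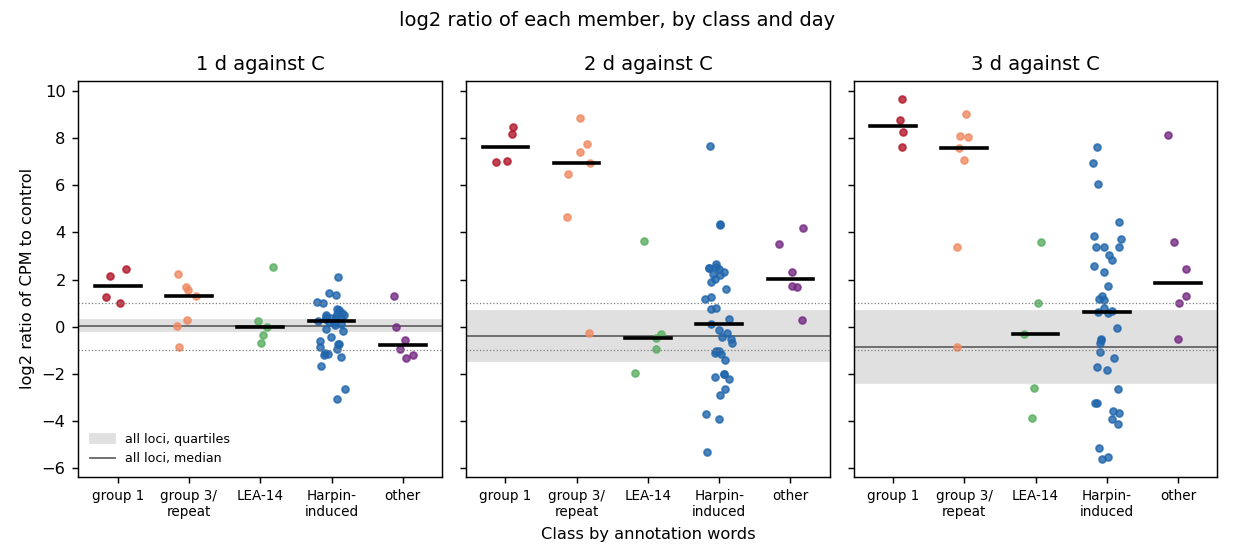
log2 ratio of CPM to C (vertical axis) of each member with reads in both libraries, by class (horizontal axis), in a panel for each of 1, 2 and 3 d, 1 library each. Points are loci and thick bars class medians, the dotted lines mark 2-fold, and the grey band and line are the quartiles and median of all loci. The group 1 and the group 3 and repeat LEA classes have medians of 8.53 and 7.61 at 3 d, whereas the Harpin-induced loci spread from −5.62 to 7.65.

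The Harpin-induced class, the largest, went both ways. Of its loci with reads in both libraries, those up-regulated numbered 4 of 38 at 1 d, 16 of 39 at 2 d and 17 of 39 at 3 d, and those down-regulated numbered 7, 14 and 14. The up-regulated shares at 1 d and 2 d were 10.5% and 41.0%, against 5.71% and 19.9% of all loci. The down-regulated shares were 18.4% and 35.9%, against 4.57% and 34.9% of all loci. At 2 d only the down-regulated share was thus near that of all loci. Down-regulation at 3 d took 35.9% of the class, below the 47.4% of all loci, and up-regulation 43.6%, above the 20.8% of all loci. The gap in down-regulation depends on the scaling, since 34.8% of all loci were down-regulated at 3 d with edgeR TMM. The down-regulation calls of Os08t0102700-01 and Os12t0127200-01 were then lost (−0.61 and −0.38). The median log2 ratio was 0.23, 0.12 and 0.64 at 1, 2 and 3 d, or 0.20, 0.53 and 1.49 above that of all loci, and at 3 d single loci lay between −5.62 and 7.65. Of these 39 loci 18 had their highest level at 3 d, 4 at 2 d, 9 at 1 d and 8 in C.

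The summed level of the class was 255, 216, 432 and 733 CPM, and 57.6% of the sum at 3 d came from a single locus. Os04t0685300-02 had 40.3, 18.1, 165 and 423 CPM. It was lower at 1 d than in C by a log2 ratio of −1.15 (−1.26 to −1.04) and higher at 3 d by 3.39 (3.33 to 3.45). Without it the class summed to 214, 198, 266 and 311 CPM, less than 2-fold apart as shares of the mapped reads.

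The largest ratio belonged to Os01t0228500-01, with 0.370, 0.9501, 76.5 and 74.5 CPM. Its log2 ratio was 1.36 (0.60 to 2.17) at 1 d, 7.69 (7.08 to 8.38) at 2 d and 7.65 (7.04 to 8.35) at 3 d, within the range of the group 3 and repeat LEA loci. Os08t0558300-00 had 0.0705, 0.190, 1.43 and 8.65 CPM, with a log2 ratio of 6.94 (5.57 to 8.82) at 3 d. It is annotated with response to desiccation, a term it shares with Os05t0584200-02 and Os03t0843300-01. Os07t0531500-01 had 2, 2, 44 and 136 reads, a log2 ratio of 6.08 (4.20 to 9.14) at 3 d.

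Other loci of the class had smaller ratios. Os11t0157200-03 had 32.8, 42.5, 56.6 and 73.8 CPM, each day above the last, and passed 2-fold only at 3 d (1.17, 1.09 to 1.25), though also at 2 d with edgeR TMM (1.11). A pair on chromosomes 11 and 12 with the same annotation, which may share reads, Os11t0120100-01 and Os12t0119800-01, had 3.67, 5.42, 11.2 and 18.6 CPM and 1.59, 2.05, 9.15 and 16.7 CPM. Both were up-regulated at 2 d and 3 d, with log2 ratios at 3 d of 2.34 (2.12 to 2.56) and 3.40 (3.08 to 3.73). Os04t0677300-01 had 0.441, 0.646, 2.22 and 9.63 CPM, its log2 ratio of 4.45 (3.87 to 5.09) at 3 d being the fourth of the class.

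The down-regulated loci included the highest of the class per length in C (RPKM 43.4). This was Os12t0159000-01, which had 38.7, 20.1, 8.60 and 3.20 CPM, a decline over all 3 days to a log2 ratio of −3.60 (−3.82 to −3.38). Os03t0836300-01 had 15.5, 11.3, 2.04 and 0.316 CPM and the lowest log2 ratio of any member at 3 d, −5.62 (−6.38 to −4.95). Os04t0416700-01 had 9.94, 11.9, 0.763 and 0.211 CPM, so that it was within 2-fold of C at 1 d (0.25, 0.09 to 0.42) and at −5.56 (−6.52 to −4.74) by 3 d. Os08t0102700-01 had 24.2, 29.8, 20.2 and 9.59 CPM and was down-regulated only at 3 d (−1.33, −1.48 to −1.19). This call was lost with edgeR TMM (−0.61), and the locus has 5 transcripts in the table that may share reads.

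Other up-regulated Harpin-induced loci were weaker. Os05t0526700-01 had 0.476, 0.95, 2.16 and 6.34 CPM and was just short of 2-fold at 1 d, and its log2 ratio at 3 d was 3.74 (3.17 to 4.36). Os10t0547200-01 reached 3.85 (2.42 to 5.78) and Os01t0736500-01 2.83 (2.17 to 3.57) at 3 d, with 4 and 21 reads in C. Os01t0864300-01 and Os07t0524200-01 had at most 10 and 6 reads in any library, and their intervals at 3 d include no change. Os01t0864300-01 passed the minimum of 10 reads only through its 2 d library. Its call of up-regulation at 2 d (2.23, 0.003 to 5.46) is therefore not independent of the filter. The 8 loci of the class within 2-fold of C at 3 d had log2 ratios of −0.69 to 0.78.

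**Figure D4:**
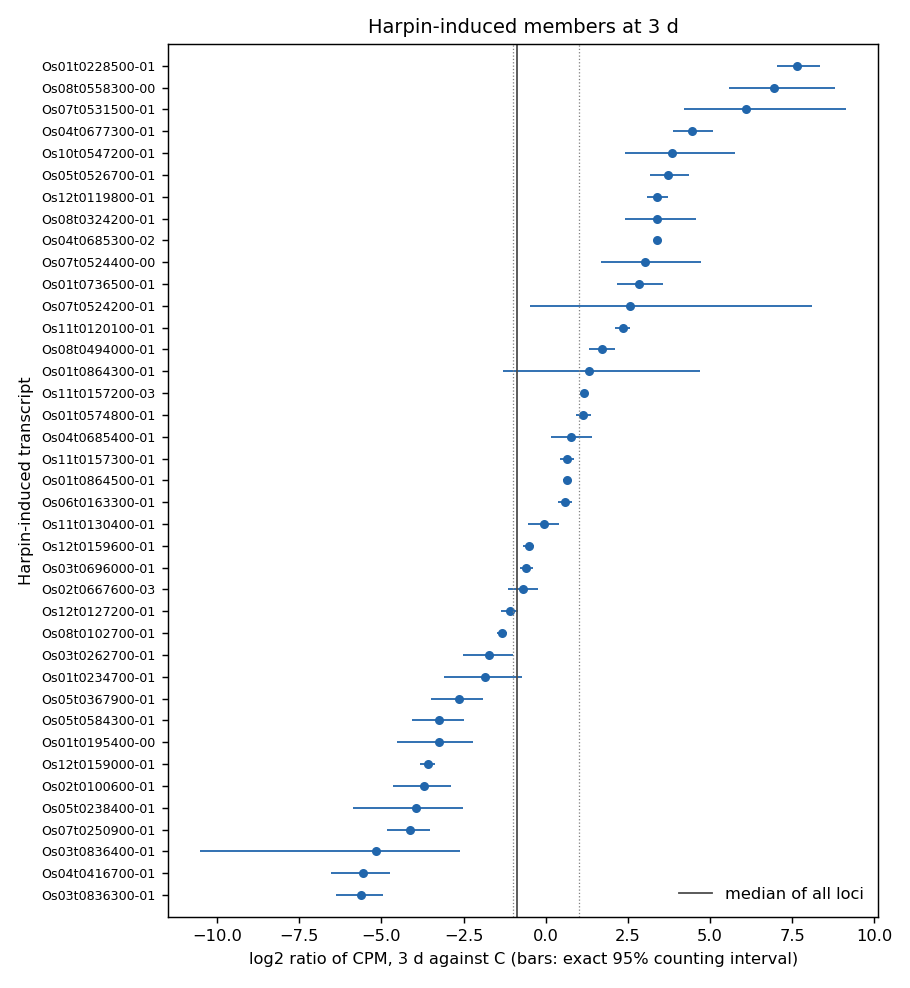
log2 ratio of CPM at 3 d to C (horizontal axis) of the 39 Harpin-induced loci (vertical axis, sorted), 1 library each, with bars for the exact 95% counting interval. The solid line is the median of all loci at −0.86 and the dotted lines mark 2-fold. The points run from 7.65 for Os01t0228500-01 to −5.62 for Os03t0836300-01, and the intervals are widest where 1 of the libraries has few reads.

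A dip at 1 d before a rise was seen in 6 of the 60 members with reads in every library, 4 Harpin-induced and 2 other LEA (1.52% of all loci with reads in every library). They were down-regulated at 1 d and up-regulated at 2 d or 3 d. The most abundant were Os01t0314800-01 and Os04t0685300-02, whose levels are given above. Os09t0482550-01 was the third, with a log2 ratio of −1.36 (−1.60 to −1.12) at 1 d, while its partner Os09t0482300-01 was at −0.94 (−1.17 to −0.71), within 2-fold of C but past it with no scaling (−1.05).

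Os08t0494000-01 had 1.25, 0.513, 2.83 and 4.08 CPM, with log2 ratios of −1.29 (−1.98 to −0.63) at 1 d and 1.70 (1.31 to 2.11) at 3 d. Os08t0324200-01 had 9, 1, 60 and 95 reads and Os07t0524400-00 had 5, 2, 29 and 41 reads. With so few reads their dip is poorly bounded, and for Os07t0524400-00 the interval at 1 d (−4.61 to 1.40) includes no change. A further locus, Os01t0864500-01, had 17.8, 2.81, 15.9 and 27.7 CPM. It had a deep dip at 1 d, −2.67 (−2.92 to −2.42), and was near C again at 2 d and 3 d (−0.16 and 0.64), although edgeR TMM put it past 2-fold at 3 d (1.36).

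**Figure D5:**
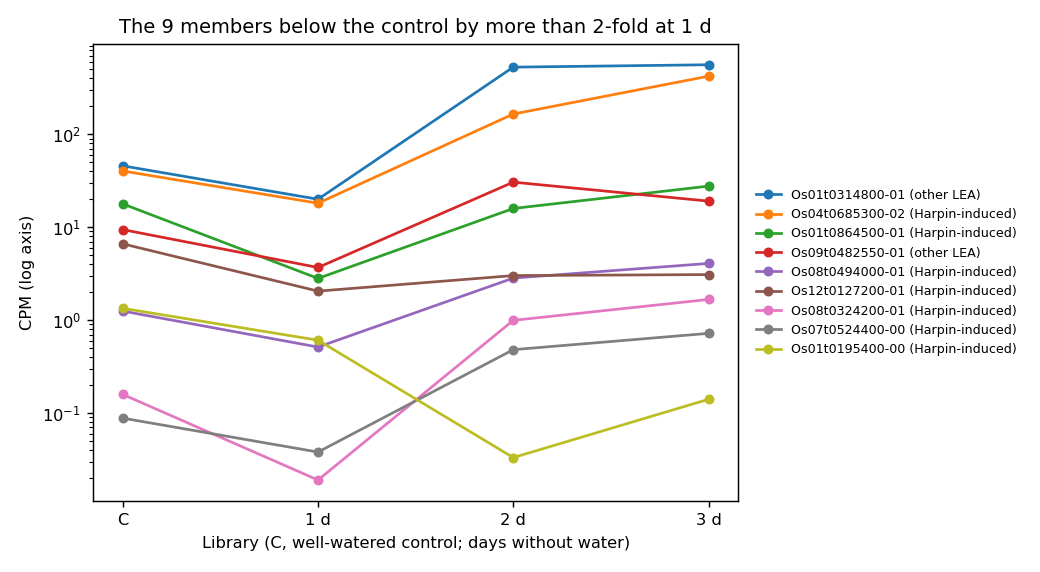
CPM on a log axis (vertical) of the 9 members down-regulated at 1 d, in C and at 1, 2 and 3 d (horizontal axis), 1 library each. At 2 d or 3 d 6 of the lines lie more than 2-fold above C, Os01t0864500-01 returns to 27.7 CPM at 3 d against 17.8 CPM in C, and Os12t0127200-01 and Os01t0195400-00 remain below C.

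Position was compared by identifier, since the table holds no coordinates. On the same chromosome, 9 pairs of neighbouring members had identifiers at most 1000 apart, and 4 of these pairs had the same call at 3 d. Over all loci, 39.9% of the pairs this close had the same call, counting every such pair and not only successive loci. Os03t0836300-01 and Os03t0836400-01 were both down-regulated (−5.62 and −5.17, the second on 1 read at 3 d against 36 reads in C). In contrast, Os04t0685300-02 was up-regulated next to Os04t0685400-01, which was not called (0.78) except with edgeR TMM or DESeq2 factors (1.64 with the second of these). Os12t0159000-01 was down-regulated near Os12t0159600-01, which stayed within 2-fold (−0.52). The member sequences were short, with a median of 1056 bases against 2689 bases for all loci, introns included.

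The place of the members among all transcripts changed as well. By RPKM, none of the 62 was among the first 100 loci in C or at 1 d, whereas 4 were at 2 d and 5 at 3 d, when the first 100 are 0.307% of all loci. The first 1000 loci, 3.07% of all, held 1 member in C, 1 at 1 d, 8 at 2 d and 11 at 3 d. In C the highest by RPKM was Os01t0314800-01 (rank 665), and at 1 d the LEA-14 protein Os05t0584200-02 (rank 865).

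The remaining genes of seed drying and ABA response were read by lists of annotation words, without the members. Dehydrins, the LEA proteins left out by the rule, were up-regulated at 1 d for 4 of 7 loci (5.71% of all loci). At 2 d and 3 d 7 of 7 were up-regulated (19.9% and 20.8% of all loci). Their median log2 ratios were 1.16, 6.70 and 8.18 at 1, 2 and 3 d. Their 8 loci summed to 10829 CPM at 3 d, against 68.6 CPM in C. Os01t0225600-00, the dehydrin left out of the counts and medians for want of a ratio, had 0, 8, 164 and 441 reads. The medians of the group 1 and of the group 3 and repeat LEA classes at 3 d (8.53 and 7.61) lie on either side of that of the dehydrins.

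Words for other seed maturation proteins (oleosin, cupin, globulin and the like) matched 48 loci, among them loci of immunoglobulin-like and vegetative storage protein annotation. Without these, a choice made after seeing the data, 41 loci had medians of 0.23, 1.08 and 1.32 at 1, 2 and 3 d. Those up-regulated numbered 3 of 32 at 1 d, 18 of 35 at 2 d and 17 of 33 at 3 d, and those down-regulated 1, 4 and 5. Their summed level was 652 CPM at 3 d, against 535 CPM in C. Loci with no read in C or in the drought library have no ratio and are missing from these counts and medians. Among them are Os06t0341300-01 (0, 16, 1035 and 1787 reads in C and at 1, 2 and 3 d) and, at 3 d, Os03t0427300-01 (4, 2, 22 and 0 reads). The 48 loci had 19 up- and 8 down-regulated of 40 at 3 d and summed to 929 CPM at 3 d, against 733 CPM in C. In the list of ABA signalling, in which 58 of 90 loci are protein phosphatases 2C, up-regulated loci numbered 3 of 88 at 1 d, 36 of 88 at 2 d and 37 of 86 at 3 d, and down-regulated loci 3, 15 and 23. Of all loci, 5.71%, 19.9% and 20.8% were up-regulated at 1, 2 and 3 d, and 4.57%, 34.9% and 47.4% down-regulated. At 1 d the ABA list was thus below all loci in both directions. On each of the last 2 days both lists held more up- than down-regulated loci.

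Words for other tissues were read in the same way. Seed storage words matched 36 loci, but the word globulin also matched immunoglobulin-like annotations. The 31 loci without these, again chosen after seeing the data, had 11 up- and 5 down-regulated of 26 at 3 d and summed to 313 CPM at 3 d, against 342 CPM in C. All 36 loci had 13 up- and 7 down-regulated of 31, with 589 CPM at 3 d, against 539 CPM in C, so that the direction of the sum turned with the immunoglobulin-like loci. The word root (34 loci) gave 9 up- and 13 down-regulated of 33, a median log2 ratio of −0.70 and 1820 CPM at 3 d, against 796 CPM in C. The word pollen (40 loci) gave 11 up- and 8 down-regulated of 33 and 1442 CPM at 3 d, against 1816 CPM in C. Of all loci 20.8% were up- and 47.4% down-regulated at 3 d. The part of other tissues in the levels of the LEA members was not tested.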

How the data were processed

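RNA-seq libraries of rice leaves were strand-specific and sequenced as single-end reads. Per the study's methods the authors trimmed reads, removed duplicates with FastUniq and mapped the rest with clc_ref_assemble to RAP-DB gene sequences, and the submitters' processing notes name the build IRGSP-1.0. The deposited table gives whole read counts per sequence and library, whose column sums were used as depth, and a sequence length that includes introns for many loci (unit other in the authors' table). Normalized values and log2 ratios in the same table are the authors' own comparison and were not used. Removal of duplicates may limit the counts of short, abundant transcripts (Os05t0542500-01 had 69.5 reads per base at 3 d), and this was not tested.

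Counts were divided by column sums (CPM) and compared as log2 ratios with exact 95% intervals of the share of 2 counts. With 1 library per condition no test was made. The calculation was tested on simulated data. Alternatives were no scaling, edgeR TMM, the DESeq2 median of ratios, no filter and a minimum of 100 reads, summed transcripts of a locus, members without Harpin-induced loci, 1 read added, and calls that need the interval on 1 side of 0. The scaling factors came from edgeR 4.0.16 and DESeq2 1.42.0 under R 4.3.3. Intervals were computed with scipy 1.17.1 and tables and plots with pandas 2.3.3, matplotlib 3.10.9 and numpy 2.4.6 in Python 3.11.15.

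All members could be named. Values in every library are given for genes the study names and, in each class, for the 6 with the highest CPM in any library and the 4 whose log2 ratio at 3 d was farthest from 0 among those with at least 100 reads. Values of further members were picked with their values in view. The members, classes and word lists (dehydrins, seed maturation, ABA signalling, leaf markers, seed storage, root and pollen words) were chosen with earlier results of these data known. Protein and promoter sequences were not analysed here.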

Additional observations from a re-analysis of the deposited data

Results flagged for a closer look

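Opposite directions on different days were shown by 6 members, which lay more than 2-fold below C at 1 d and more than 2-fold above it at 2 d or 3 d. Whether the days differ could not be tested with 1 library each. The log2 ratio to C at 1 d was −1.20 for Os01t0314800-01 (LEA protein 3 family), with 3.61 at 3 d. For Os04t0685300-02 (Harpin-induced) it was −1.15 at 1 d and 3.39 at 3 d, and for Os09t0482550-01 (LEA-18 domain) −1.36 at 1 d and 1.02 at 3 d. For Os08t0494000-01, Os08t0324200-01 and Os07t0524400-00 (Harpin-induced) it was −1.29, −3.06 and −1.21 at 1 d and 1.70, 3.40 and 3.03 at 3 d. The last 2 had 1 and 2 reads at 1 d.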

How the results depend on the processing

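Of 138 alternative values of 24 results, 9 could not change by construction, being scalings of a difference from all loci. Of the other 129, 119 were labelled the same. For a count this meant a value within a set fold of the main one. For a median it meant the same sign and a value within the exact 95% interval of the main median. In the classes other than Harpin-induced that interval is the whole range of a few loci, so the label says little about stability there. Also among the 129 are medians of the group 1, group 3 and repeat and other LEA classes with a minimum of 100 reads. These could not change, since every locus with a ratio had that many. Without the Harpin-induced loci, the members' median relative to all loci was 4.32 at 2 d and 4.46 at 3 d. Up-regulated members then numbered 16 of 22 at 2 d and at 3 d (72.7%, against 19.9% and 20.8% of all loci). Down-regulated ones numbered 2, 1 and 2 of 22 at 1, 2 and 3 d (4.57%, 34.9% and 47.4% of all loci). The counts are lower than the main ones because 39 of 62 loci leave the list. The median of the Harpin-induced class at 2 d was −0.21 with a minimum of 100 reads, against 0.12. The median of the LEA-14 domain class at 3 d was −1.47 with a minimum of 100 reads, against −0.31. It was 0.41 with edgeR TMM and 0.55 with DESeq2 factors. These factors raise the median of all loci at 3 d by 0.72 and 0.86. The call was the same under all 4 scalings for 55 of 60 members at 1 d, 55 of 61 at 2 d and 52 of 61 at 3 d. Depth limits the 14 loci with fewer than 10 reads in C, whose ratios have wide intervals. No paired analysis was possible because each condition has 1 library, and none could be left out.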
